A study of Mus musculus with 59 samples.

Results

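The regions described here were distal sites in mouse liver where a chromatin immunoprecipitation sequencing (ChIP-seq) peak for PPARα was called both in fed and in fasted animals and where no peak for BCL6 or PPARδ was called in either state. They were chosen by the peak calls themselves. A fed PPARα peak was kept if a fasted PPARα peak centre lay within 200 bp, if no BCL6 or PPARδ centre from C57BL/6 livers did, and if its centre lay outside the window from 1000 bp upstream to 100 bp downstream of every RefSeq transcription start site (TSS). Of 21410 fed PPARα peaks, 17096 were kept at the first step, which is 79.9% of all fed PPARα peaks, 6738 after removal of BCL6, 5211 after removal of PPARδ and 4190 after removal of promoters. These 4190 constant PPARα-alone distal regions made up 19.6% of the fed PPARα peaks. Nothing is read from these counts, since they are the selection.

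The study asked how the repressor BCL6 and the fasting-activated receptor PPARα share regulatory sites in liver. The lists that chose the regions came from wild-type C57BL/6 mice, fed ad libitum or fasted overnight, and pooled 3 livers per antibody and state. A separate list of BCL6 peaks came from 3 fed Bcl6 fl/fl livers on the C57BL/6 strain. These animals carry floxed alleles without Albumin-cre, served the study as wild-type controls, and played no part in the choice of regions. Whole liver was used, so the cell type behind a peak is not given by the assay, and ages were not given in the sources used here. Each list held positions only, with a fixed peak width of 216 bp for fed PPARα, so neither the height of a peak nor the depth or the spread between livers is known.

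PPARα is a nuclear receptor that binds DNA as a heterodimer with RXR at direct repeats of a hexamer spaced by a single base. Fatty acids released during fasting activate it, and in hepatocytes it switches on fatty acid oxidation and ketogenesis. PPARδ is a related receptor that can bind the same repeats. BCL6 is a zinc finger repressor that recruits corepressor complexes and recognises an element that resembles the STAT site. Enhancers in hepatocytes are also bound by HNF4, FOXA, HNF6, HNF1 and C/EBP proteins.

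A clear direct repeat was the exception among the constant PPARα-alone regions. Both hexamers, AGGTCA with 1 base between them, occurred without a mismatch in 13 of the 4190 central 200 bp windows, with 1 mismatch in 140 and with 2 mismatches in 465. The first 5 exact repeats in chromosome order, and the exact repeat at Septin9, the gene with the most of these regions, are shown to give the receptor's element in its cleanest form. All sequences are from the mm10 reference, 5′ to 3′ on the stated strand, with the repeat in capitals.
Upstream of Jak1, chr4:101342262-101342321, strand +: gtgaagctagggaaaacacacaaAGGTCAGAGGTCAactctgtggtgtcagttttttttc
Upstream of Pom121, chr5:135399777-135399836, strand -: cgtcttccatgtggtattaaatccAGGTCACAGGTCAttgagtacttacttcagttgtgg
Upstream of Foxk1, chr5:142367532-142367591, strand +: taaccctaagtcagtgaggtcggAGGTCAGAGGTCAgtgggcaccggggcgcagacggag
Upstream of Tgoln1, in an intron of Tcf7l1, chr6:72635978-72636037, strand +: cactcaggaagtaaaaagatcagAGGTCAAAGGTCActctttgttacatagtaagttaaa
Chromosome 8, no protein-coding TSS within 100 kb, chr8:92168449-92168508, strand -: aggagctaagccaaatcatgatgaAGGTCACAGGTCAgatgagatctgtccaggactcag
Intron 3 of Septin9, chr11:117321467-117321526, strand +: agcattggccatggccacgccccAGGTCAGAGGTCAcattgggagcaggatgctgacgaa
The Jak1 repeat lay 76979 bp upstream of that kinase gene's TSS and was the only 1 of the first 5 with a BCL6 peak in the floxed livers, with its centre 2 bp from that of PPARα. The repeat upstream of Foxk1, a forkhead factor gene, was 33884 bp from its TSS. Fed and fasted PPARα centres at these 6 regions differed by 1 to 50 bp.

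Most regions had no such repeat, and a whole peak region at Scarb1, picked after its values were seen, is shown as an example. It is not a typical one, since HNF4 matches were found in 19.3% and C/EBP matches in 18.8% of the 4190 regions. Capitals mark the half-site AGGTCA, the HNF4 element CAAAGTCCA with at most 1 mismatch, and the C/EBP element TTGCNNAA, on either strand.
Scarb1 region, chr5:125311176-125311391, strand +: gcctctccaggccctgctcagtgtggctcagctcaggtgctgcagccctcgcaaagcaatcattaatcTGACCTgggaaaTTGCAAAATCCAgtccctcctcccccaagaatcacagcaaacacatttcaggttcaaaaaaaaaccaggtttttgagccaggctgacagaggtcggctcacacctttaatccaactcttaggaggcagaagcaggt
The Scarb1 region lay in intron 1 of the gene for the HDL receptor, 29811 bp downstream of the TSS, with 1 half-site, 1 HNF4 match and 1 C/EBP match. The HNF4 and C/EBP matches overlap, so the capitals show them as a single stretch. The fed and fasted PPARα centres at the Scarb1 region were 2 bp apart, and a floxed-liver BCL6 centre was 10 bp away.

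The offsets between fed and fasted PPARα centres were part of the choice and are given as a description. The fed and fasted centres of the constant PPARα-alone regions differed by a median of 25 bp (interquartile range 12 to 46 bp), against 23 bp over all 17096 constant peaks. Of the 4190 regions, 51.6% had centres within 25 bp, 22.3% within 10 bp and 95.8% within 100 bp. The largest offset was 195 bp and the nearest region left out had 201 bp. Only 33 regions had an offset over 150 bp, and 24 regions that met every other condition had one over 200 and up to 250 bp.

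Distances to the excluded factors were likewise fixed by the choice up to 200 bp. The median distance to the nearest C57BL/6 BCL6 centre was 12982 bp, the smallest was 203 bp, and 14 regions had one over 200 and up to 250 bp away. A BCL6 centre over 200 and up to 1000 bp away was present at 345 regions, or 8.23%, and at 9.42% of the PPARα-alone regions called in the fed state only and 5.15% of those called in the fasted state only. In constant distal regions with BCL6, the 2 factors' centres were a median of 22 bp apart and at most 198 bp. The nearest PPARδ centre was a median of 28061 bp away and at least 203 bp.

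A peak for BCL6 in the floxed livers tested whether the label held in other animals, and at a sizeable minority it did not. BCL6 was called there at 1276 of the 4190 regions, 30.5% (95% Wilson interval 29.1 to 31.9%). The background share was 55.4% of all fed PPARα peaks. The regions were chosen to lack BCL6 in C57BL/6 livers, so a share below this background is partly fixed by the choice. The floxed centre lay a median of 25 bp from the PPARα centre, and 79.2% of the 1276 were within 50 bp. Over all sites, 62.2% of the 17454 floxed-liver BCL6 peaks had a fed C57BL/6 BCL6 centre within 200 bp, and 69.4% of the 15642 fed C57BL/6 BCL6 peaks had a floxed one. The term "PPARα alone" refers to the calls in C57BL/6 livers.

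The share with floxed-liver BCL6 lay between those of the other classes of distal PPARα region without PPARδ. It was 73.0% (71.8 to 74.1%) of the 5755 constant regions with BCL6 in C57BL/6 livers, for an odds ratio of 0.162 (0.149 to 0.177). It was 15.6% (14.1 to 17.1%) of the 2313 PPARα-alone regions called in the fed state only, and the constant regions exceeded them with an odds ratio of 2.38 (2.09 to 2.71, two-sided Fisher's exact test, adjusted p = 5.22e-42). It was 9.11% (8.47 to 9.80%) of the 7133 PPARα-alone regions called in the fasted state only (odds ratio 4.37, 3.94 to 4.85, adjusted p = 8.37e-181). The floxed livers were fed, whereas fasted-only regions by definition lacked a fed PPARα call. The class with BCL6 was defined by C57BL/6 calls that the other classes lacked, so the direction of that difference is partly fixed. Regions are not replicate livers, so these and all later p-values cover counting error among regions only. The role of peak height cannot be told apart here, since the lists held none.

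**Figure D1:**
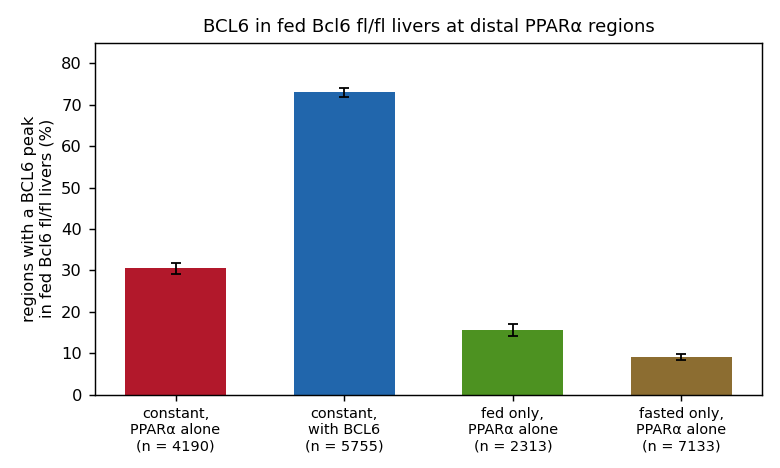
Share of distal PPARα regions (%, vertical axis) with a BCL6 peak centre within 200 bp in 3 fed Bcl6 fl/fl livers, by class. Bars give the share and error bars the 95% Wilson interval: 30.5% of the constant PPARα-alone regions stand between 73.0% with BCL6 and 15.6% and 9.11% called in one state only.

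Within the constant PPARα-alone regions, few features differed between those with a floxed-liver BCL6 peak and those without. Of 25 features compared after the data were seen, 2 passed the threshold of an adjusted p of 0.05. The HNF1 half-site GTTAAT was present in 5.56% of the 1276 with and 9.03% of the 2914 without (adjusted p = 0.00289, Fisher's exact test). The E-box CACGTG, bound by CLOCK, MYC and USF proteins, was present in 7.21% and 4.67% (adjusted p = 0.0138). The BCL6 and STAT element TTCCNNGAA was present in 3.84% (2.92 to 5.04%) and 3.53% (2.92 to 4.27%), with an odds ratio of 1.09 (0.771 to 1.54). The direct repeat was present in 12.9% and 15.5% (adjusted p = 0.123).

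Receptor elements were enriched at the centre of the regions. The direct repeat with at most 2 mismatches was found in 618 regions, 14.7% (13.7 to 15.9%), or 4.98 times the 2.96% of windows of the same length 1000 bp to either side. It was found in 13.7% of all fed PPARα peaks and in 2.52% of 32851 RefSeq promoters. The median distance of the repeat from the peak centre was 30 bp. The half-site was found in 33.3% against 13% at the side, and the HNF4 element CAAAGTCCA in 19.3% against 6.71%. Some regions held more than 1 of these 3 elements, and the direct repeat can hold a half-site. At least 1 receptor element was present in 49.9% of the constant PPARα-alone regions and in 50.8% of those with BCL6 (odds ratio 0.966, 0.892 to 1.05, adjusted p = 0.405), 43.5% of the fed-only regions (odds ratio 1.30, adjusted p = 1.45e-06) and 47.3% of the fasted-only regions (odds ratio 1.11, adjusted p = 0.00970).

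The direct repeat was more frequent than in the constant regions with BCL6, while the single half-site was not shown to differ (33.3% against 32.2%, odds ratio 1.05, adjusted p = 0.355). The repeat was found in 10.8% (10.0 to 11.6%) of the constant regions with BCL6, for an odds ratio of 1.43 (1.27 to 1.61, adjusted p = 3.59e-08 over 63 tests of 21 motifs). The fed-only regions had 10.7% (odds ratio 1.44, adjusted p = 2.03e-05). The fasted-only regions had more than the constant ones, 16.9% (odds ratio 0.852, adjusted p = 0.00757). That last difference was lost with up to 3 mismatches, with centres within 100 bp (adjusted p = 0.0579), and among regions of 45 to 50% GC (adjusted p = 0.314).

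The base before the repeat also differed from the fasted-only regions. Among repeats with at most 1 mismatch, T stood just 5′ of the repeat in 21 of 153 constant PPARα-alone regions, 13.7% (9.16 to 20.1%), and in 96 of 346 fasted-only regions, 27.7% (23.3 to 32.7%). The odds ratio was 0.414 (0.247 to 0.695, adjusted p = 0.00837 over 15 comparisons chosen after the data were seen). The other 14 comparisons, over the 4 bases before the repeat and the spacer base, did not pass. In the 5 exact repeats shown first, that base can be read directly before the capitals.

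Elements of other liver factors were scarcer than at constant regions with BCL6. The C/EBP element was found in 18.8% against 28.2% (27.1 to 29.4%), with an odds ratio of 0.589 (0.535 to 0.648, adjusted p = 2.81e-26). The HNF1 half-site was found in 7.97% against 13.6% (odds ratio 0.552, adjusted p = 2.18e-17). The HNF6 element TATTGAT was found in 5.47% against 9.47% (odds ratio 0.553), the FOXA element TGTTTAC in 7.28% against 10.0% (odds ratio 0.703) and the HNF4 element in 19.3% against 22.2% (odds ratio 0.839), and each passed the threshold. The D-box TTATGTAA, bound by DBP, TEF, HLF and NFIL3, was found in 1.17% against 2.64% (odds ratio 0.436, adjusted p = 1.06e-06). At least 1 FOXA, HNF6, C/EBP or HNF1 element was present in 34.3% of the constant PPARα-alone regions and 50.7% of those with BCL6 (odds ratio 0.509, adjusted p = 6.92e-59). The share was 39.2% in the fed-only regions (odds ratio 0.811, adjusted p = 1.54e-04) and 29.8% in the fasted-only regions (odds ratio 1.23, adjusted p = 1.45e-06). Neither a receptor nor such a liver-factor element was found in 31.1% of the constant PPARα-alone regions and 21.8% of those with BCL6. For the fed-only and fasted-only regions this was 32.5% and 35.8%.

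The C/EBP elements at Foxa2 and Abcd2 are shown because this motif had the widest downward difference from the class with BCL6 in percentage points, of -9.43. Capitals mark the element.
Foxa2, 64858 bp downstream of the TSS, chr2:147980551-147980610, strand -: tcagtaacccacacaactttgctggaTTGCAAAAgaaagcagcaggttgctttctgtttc
Abcd2, 10699 bp upstream of the TSS, chr15:91202711-91202770, strand +: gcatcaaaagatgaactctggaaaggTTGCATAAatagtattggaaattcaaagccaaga
Foxa2 encodes a forkhead factor of hepatocytes and Abcd2 a peroxisomal transporter of long-chain acyl-CoA. Neither region had a floxed-liver BCL6 peak.

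An exact match to the BCL6 and STAT element TTCCNNGAA was found in few regions of any class. No mismatch was allowed, unlike for the direct repeat and the HNF4 element. The study reported strong enrichment of BCL6 elements at BCL6 sites by another method of motif search. The exact match was present in 3.63% (3.10 to 4.24%) of the constant PPARα-alone regions, in 4.93% of those with BCL6 (adjusted p = 0.00502) and in 6.49% of the fed-only regions, which had the highest share (odds ratio 0.543, adjusted p = 1.76e-06). The share in flanking windows was 2.86%. The fasted-only regions had 2.92% (adjusted p = 0.0870). Among the fewer regions of 45 to 50% GC the odds ratio was 0.678 against the class with BCL6 and 0.616 against the fed-only regions, both with an adjusted p of 0.291.

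Against the fasted-only regions, 4 liver-factor elements differed in the other direction. C/EBP (18.8% against 16.1%), HNF4 (19.3% against 14.8%), FOXA (7.28% against 5.36%) and HNF6 (5.47% against 4.01%) elements were all more frequent in the constant PPARα-alone regions and all passed. The HNF1 half-site (7.97% against 8.15%, odds ratio 0.977, adjusted p = 0.876) and the D-box (1.17% against 1.18%, odds ratio 0.993) did not pass. The core ACANNNTGT of the glucocorticoid receptor element was less frequent than in each other class, at 5.89% against 8.97%, 7.78% and 7.99%, and was 0.959 times its share in the flanks. The ETS element CCGGAAGT was found in 0.859% against 0.226% with BCL6 (adjusted p = 6.73e-05), the E-box in 5.44% against 4.07% (adjusted p = 0.00430) and the AP-1 element TGANTCA in 7.80% against 9.56% (adjusted p = 0.00611). The cAMP response element TGACGTCA was found in 0.167% against 0.547% of fasted-only regions (adjusted p = 0.00514) and the YY1 element AAGATGGC in 0.549% against 1.01% (adjusted p = 0.0236). The extended LRH-1 and ERR half-site and the CTCF, SREBP, NFI and NRF1 elements were each found in 0.0955 to 0.931% of the constant PPARα-alone regions and passed in no comparison. Of 21 motifs, 4 were more frequent and 9 less frequent than in the constant regions with BCL6, 3 and 3 than in the fed-only regions, and 4 and 4 than in the fasted-only regions.

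**Figure D2:**
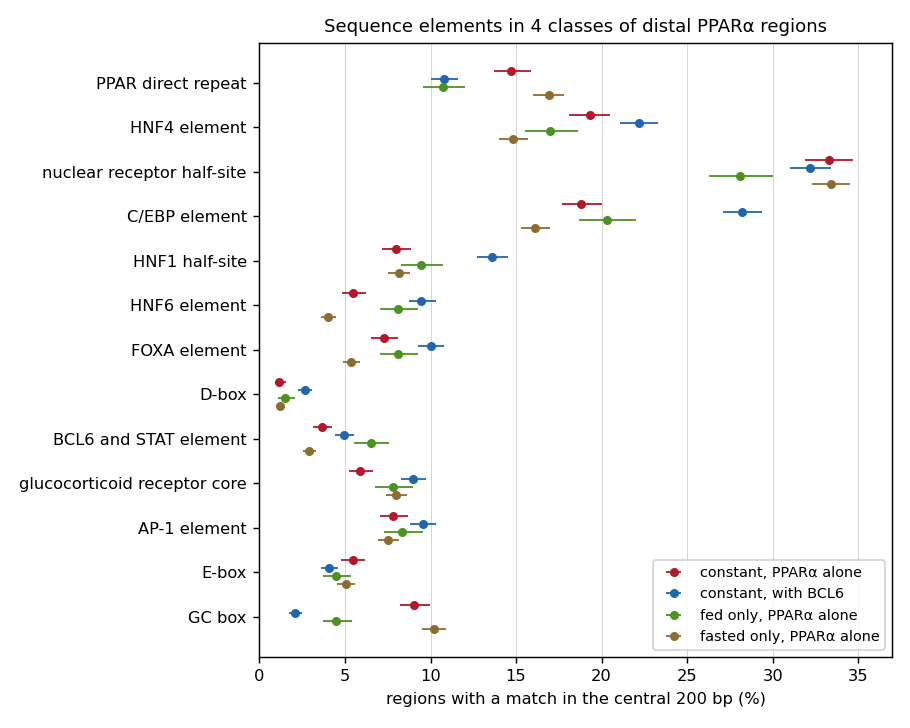
Share of regions (%, horizontal axis) with a match to each of 13 sequence elements in the central 200 bp. Points give the share in each class and lines the 95% Wilson interval. The class with BCL6 stands apart to the right for C/EBP (28.2%) and HNF1 (13.6%) and to the left for the GC box (2.07%).

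**Figure D3:**
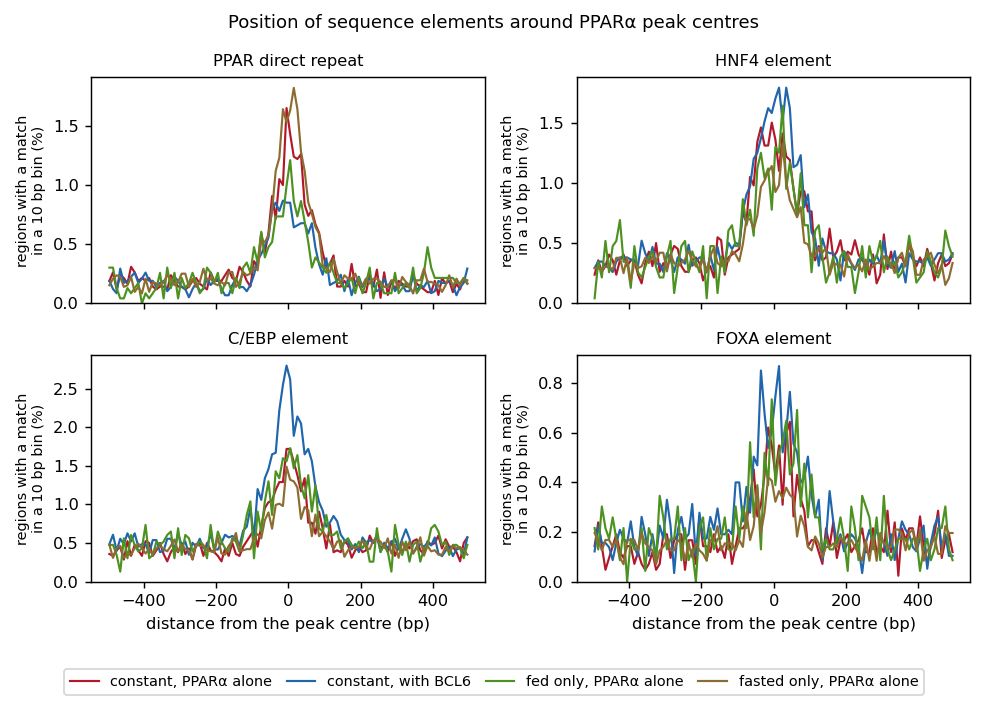
Share of regions (%, vertical axes) with a match whose middle lies in each 10 bp bin, against distance from the PPARα peak centre (bp), for 4 elements and 4 classes. All 4 elements are most frequent within about 100 bp of the centre in every class, and the C/EBP peak is tallest in the constant regions with BCL6.

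Base composition also differed between the classes. The median GC content of the central 200 bp was 50.0% in the constant PPARα-alone regions (interquartile range 45 to 55%), 45% in those with BCL6, 45.5% in the fed-only and 49.5% in the fasted-only regions. The fed-only regions, close in GC to the class with BCL6, held the C/EBP element in 20.3% and the HNF4 element in 17.0%. The class with BCL6 held them in 28.2% and 22.2%. The cause of these differences was not tested. Regions of at least 50% GC with an observed to expected CpG ratio of at least 0.6 made up 5.89%, 0.626%, 2.25% and 8.82% of the 4 classes. The odds ratio was 9.95 (7.0 to 14.2, adjusted p = 3.93e-57) against those with BCL6, 2.72 (2.01 to 3.69) against fed-only and 0.648 (0.556 to 0.754) against fasted-only regions. With promoter windows of 1000 bp to either side or 5000 bp upstream to 1000 bp downstream of a TSS, the first became 6.14 and 5.88, and with stricter thresholds of 55% GC and a ratio of 0.65 it became 22.8. With centres within 100 bp the second became 1.76. The last lost its call when regions within 1000 bp downstream of a TSS were also removed (adjusted p = 0.0856). The GC box GGGCGG of SP1-like factors was found in 9.05%, 2.07%, 4.50% and 10.2%, the difference of 6.98 percentage points from the class with BCL6 being the widest upward.

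**Figure D4:**
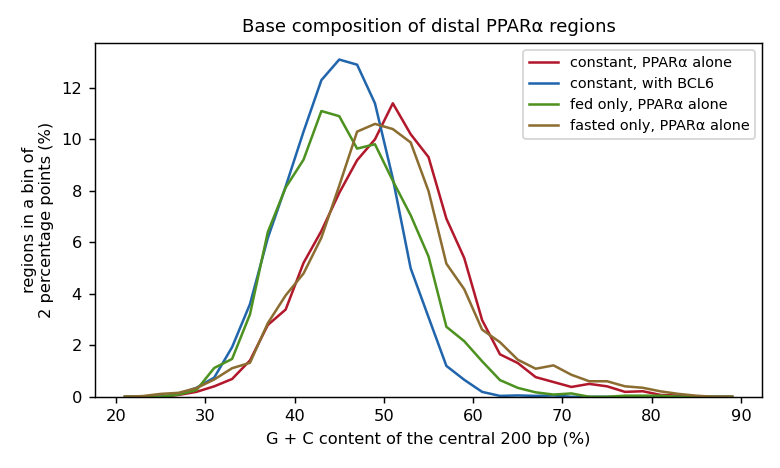
Distribution of G + C content (%, horizontal axis) of the central 200 bp in bins of 2 percentage points, as the share of regions in each class (%, vertical axis). The constant PPARα-alone (median 50.0%) and fasted-only (49.5%) curves lie to the right of the constant regions with BCL6 (45%) and the fed-only regions (45.5%).

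Among regions of 45 to 50% GC alone, most of the motif differences no longer passed. This restriction was added after the data were seen and left 1094 constant PPARα-alone regions and 1935 with BCL6. There the C/EBP element kept its difference from the class with BCL6, with an odds ratio of 0.672 (adjusted p = 6.29e-04), as did the direct repeat, with 1.39 (adjusted p = 0.0491). The odds ratios became 0.996 for HNF4, 0.987 for HNF6, 0.787 for HNF1, 0.793 for FOXA, 1.02 for the D-box and 1.54 for the GC box, with adjusted p-values of 0.291 or more. Against the fasted-only regions the HNF4 element still passed (odds ratio 1.39, adjusted p = 0.0167). Against the fed-only regions no motif passed, where the direct repeat had an odds ratio of 1.56 (adjusted p = 0.0515) and its interval in the whole set was 1.23 to 1.69. The floxed-liver BCL6 comparison held, with odds ratios of 0.127, 2.06 and 3.86.

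The GC boxes at Hnf4a, Ppara and Vxn are shown as examples of this element. Capitals mark the element.
Hnf4a, intron 2, chr2:163539695-163539754, strand -: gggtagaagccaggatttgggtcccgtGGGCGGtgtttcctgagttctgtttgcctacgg
Ppara, intron 2, chr15:85744003-85744062, strand +: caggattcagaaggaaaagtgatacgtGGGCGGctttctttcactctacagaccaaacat
Nearest TSS Vxn, in an intron of 2610203C22Rik, chr1:9630247-9630306, strand +: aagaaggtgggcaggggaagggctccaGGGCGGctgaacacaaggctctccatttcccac
The Ppara site is in the receptor's own gene, 8338 bp downstream of the TSS, and the Hnf4a site is 7485 bp upstream of the nearest of that gene's start sites. Of the 247 CpG-rich regions, 48 lay in promoters of predicted RefSeq transcripts, which the choice of regions did not remove. Such promoters held 189 of all 4190 regions, or 4.51%.

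Words of 8 letters also differed in composition. Among 5551 words present in at least 1% of the regions, the 10 with the highest ratio to other distal fed PPARα peaks all held CpG, led by CCGCCGCC in 1.0% against 0.105%. The 10 with the lowest ratio were rich in A and T, led by AGATCAAT in 1.1% against 2.42%, AAATATTG in 1.43% against 2.99% and ATCAATAG in 1.12% against 2.33%. ATCAATAG holds the HNF6 element TATTGAT on its other strand, so the words do not show composition only. These are descriptions with no test.

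The constant PPARα-alone regions lay closer to genes than those with BCL6. The median distance to the nearest TSS was 15548 bp, against 23512 bp with BCL6, 21015 bp for fed-only and 15836 bp for fasted-only regions. A TSS within 5 kb was present for 24.0%, 16.6%, 16.9% and 24.2%, with odds ratios of 1.59 (1.44 to 1.76, adjusted p = 4.89e-19), 1.56 (1.37 to 1.78, adjusted p = 5.34e-11) and 0.992 (0.907 to 1.08, adjusted p = 0.938). Introns held 55.4% of the regions, exons 5.58% and intergenic sequence 39.0%, and 27% lay in a first intron. The exon share was above the 2.88% with BCL6 (odds ratio 1.99, adjusted p = 1e-10) and the 3.20% of fed-only regions, and below the 7.82% of fasted-only regions (odds ratio 0.697, adjusted p = 1.3e-05). Repeats covered the centre of 8.83%, against 10.0% with BCL6 (adjusted p = 0.0486), 11.9% of fed-only and 11.1% of fasted-only regions (both adjusted p = 1.42e-04). Only uniquely aligned reads were used by the authors, which limits calls in repeats.

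The regions were spread thinly over genes and chromosomes. The median distance to the nearest other region of the kind was 53081 bp, and 20.7% had one within 10 kb. Their share of fed PPARα peaks ran from 15.6% on chromosome 3 to 24.0% on chromosome 11. A protein-coding TSS within 100 kb was found for 3659 regions, 87.3%, naming 2665 genes as nearest. Of these genes, 1979 (74.3%) had 1 region and 205 had 3 or more. A nearest gene is not shown to be the target of a region.

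Septin9, which encodes a filament-forming GTPase of the cytoskeleton, had the most regions, 8. None of its 14 fed PPARα peaks carried BCL6 in C57BL/6 livers, while 4 of the 8 regions did in the floxed livers, against 30.5% of all 4190 regions. Introns held 7 of the 8 positions and 3 held a direct repeat, against 55.4% and 14.7% of all regions. Lrig1, encoding a membrane brake on growth factor receptors, had 7 regions among 13 fed PPARα peaks, 5 of them with BCL6. Scarb1 had 6, all intronic and 5 with floxed-liver BCL6, among 17 fed PPARα peaks, of which 7 carried BCL6. Trib1, a pseudokinase that directs C/EBPα to degradation, had 6 regions outside the gene. Of these, 4 held a C/EBP element and 0 had floxed-liver BCL6, against 18.8% and 30.5% of all 4190 regions. Mical3, an actin-oxidising enzyme gene, had 6, with 5 at floxed-liver BCL6 and 2 with a direct repeat. Gse1, Irf2bpl and Zmiz1 had 6 each and 1700017B05Rik 5. Among the fed PPARα peaks of these 4 genes, the number with BCL6 was 2 of 15 at Gse1, 3 of 11 at Irf2bpl, 9 of 17 at Zmiz1 and 1 of 8 at 1700017B05Rik. Over all genes, 6738 of the 17096 constant fed PPARα peaks had no C57BL/6 BCL6 centre. That background covers constant peaks only, whereas the counts per gene cover all fed PPARα peaks, so the 2 are not on the same base. Genes with the most regions were picked through peaks without BCL6, so their BCL6 counts are partly fixed by the choice. The counts per gene are small and were not tested.

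By share of regions, the classic PPARα target pathways were thinly represented. Fatty acid oxidation genes were the nearest to 12 of the 4190 regions, 0.286% (0.164 to 0.50%), against 0.649% of all fed PPARα peaks, a ratio of 0.441. These 12 lay at 8 of the 39 genes on the list, of which 37 had a fed PPARα peak. Over all genes, 2665 of 21000 protein-coding genes had a region, so by count of genes this list was not below the background. Ketogenesis and fasting hormone genes were nearest to 2 regions, 0.0477% (0.0131 to 0.174%), against 0.173%, a ratio of 0.276. Fatty acid uptake and lipid droplet genes had 10 regions, 0.239% against 0.458%. The numbers are small, the intervals cover counting error only, and no test was made of any list.

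The 12 regions at fatty acid oxidation genes included 3 at Acaa2, 2 at Abcd2, and 1 each at Acaa1b, Acot4, Eci2, Ehhadh and Por. Acaa2 and Acaa1b encode thiolases of mitochondria and peroxisomes. Ehhadh encodes the peroxisomal bifunctional enzyme, Eci2 an enoyl-CoA isomerase, Acot4 an acyl-CoA thioesterase and Por the electron donor of the cytochrome P450 enzymes. These genes were not free of BCL6, which was called at 6 of 10 fed PPARα peaks of Ehhadh, 7 of 8 of Por, 5 of 9 of Acaa2 and 6 of 9 of Abcd2. Over all genes, 6738 of the 17096 constant fed PPARα peaks had no C57BL/6 BCL6 centre, so most constant peaks had one. The counts per gene also include fed peaks that were not constant, so they are not on the same base. In the floxed livers BCL6 was called at 4 of the 12, against 30.5% of all 4190 regions. A half-site was present in 5, the HNF4 element in 3, and the direct repeat in 0, against 33.3%, 19.3% and 14.7% of all 4190. The Abcd2 region in exon 1 was 127 bp downstream of the TSS, just outside the promoter window. Of the 2 ketogenic regions, 1 lay in intron 5 of Bdh1, whose enzyme makes β-hydroxybutyrate.

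Hepatocyte transcription factor genes had 20 regions at 12 of 20 genes, 0.477% (0.309 to 0.736%) against 0.556% of all fed PPARα peaks. Of all 21000 protein-coding genes, 2665 had a region. Ppara and Cebpb had 4 each, Prox1 and Gata6 had 2 each, and Cebpa, Foxa2, Hnf4a, Nr1i2, Nr5a2, Onecut2 and Rxra had 1 each. At Ppara, 14 fed PPARα peaks were present in all, 6 with C57BL/6 BCL6, and 2 of the 4 regions had BCL6 in the floxed livers. At Cebpb, 1 of 10 fed PPARα peaks carried BCL6. At Nr5a2, which encodes LRH-1, 10 of 12 did. Of the 17096 constant fed PPARα peaks over all genes, 6738 had no C57BL/6 BCL6 centre. The peaks counted per gene also include fed peaks that were not constant. These counts per gene are small and were not tested. The region in intron 1 of Rxra, the gene for the heterodimer partner, was 5140 bp from the TSS and had floxed-liver BCL6. Floxed-liver BCL6 was present at 9 of the 20, and the direct repeat at 0, against 30.5% and 14.7% of all 4190 regions.

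The remaining lists had ratios to the share over all fed PPARα peaks from 0 to 1.11. Lipogenesis genes had 14 regions (ratio 0.730), cholesterol and bile acid genes 13 (0.615), glucose and glycogen genes 14 (0.795) and insulin and growth hormone signalling genes 21 (0.95). Circadian clock genes had 17 (1.11) and mitogen and stress response genes 9 (1.07). Marker genes of other liver cell types had 6 regions, 0.143% (0.0656 to 0.312%) against 0.131%, at 3 of 24 genes. Among all 21000 protein-coding genes, 2665 had a region. Ribosomal protein genes had 5 (0.581), and olfactory receptor genes 0 of 4190, with a Wilson upper limit of 0.0916%, against 0.145%.

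**Figure D5:**
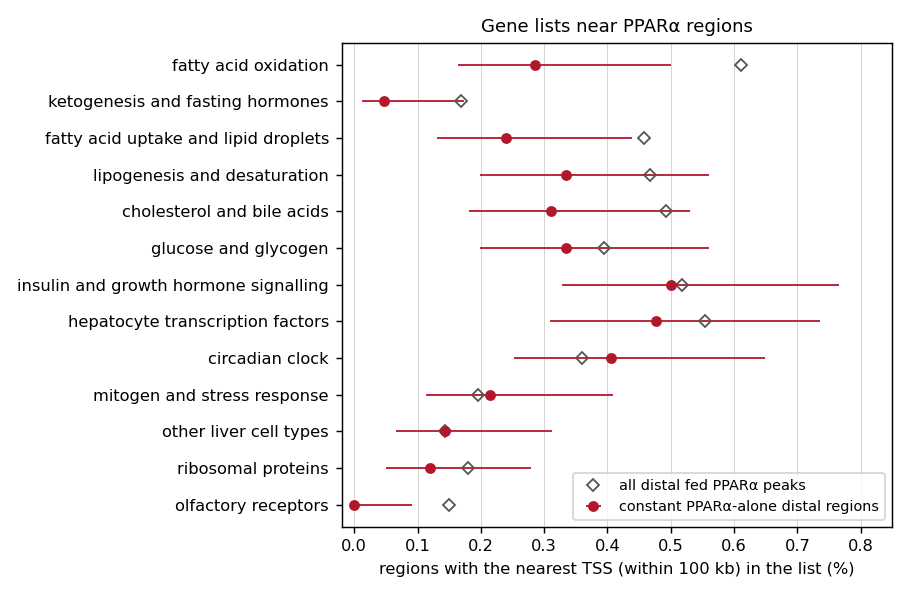
Share of regions (%, horizontal axis) whose nearest protein-coding TSS within 100 kb belongs to each of 13 gene lists. Filled points give the constant PPARα-alone distal regions with 95% Wilson intervals and open diamonds all 19489 distal fed PPARα peaks. For fatty acid oxidation the diamond (0.611%) lies above the interval (0.164 to 0.50%).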

How the data were processed

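ChIP-seq peak lists from mouse liver were used. The authors deposited 7 lists from 21 of 59 samples, each holding positions in bp on mm10 for peaks pooled over 3 livers, with no scores, and no signal or count for a single liver. Per the study's methods, the authors aligned reads with Bowtie (unique alignments) and called peaks with HOMER against input, filtered by DESeq2. Whether starts count from 0 or 1 was not stated, an uncertainty of 1 bp. All positions are as deposited, apart from printed sequences, which start at the base after the listed start.

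Peak centres within 200 bp counted as shared. Classes, distances and sequence matches (both strands, central 200 bp, mm10 and RefSeq curated transcripts, 45756) were computed with Python 3.11.15, NumPy 2.4.6 and SciPy 1.17.1. Promoter sequences were those of RefSeq. Shares have 95% Wilson intervals and odds ratios 95% intervals, and differences were tested by two-sided Fisher's exact test with Benjamini-Hochberg adjustment within each family. Depth is unknown. The CTCF and NFI elements and further motifs were scanned too. Scripts were tested on simulated data. Named genes were the 10 with most regions and every gene of 3 lists with a region; printed sequences were the 5 direct repeats with fewest mismatches and 3 regions for each motif that differed most, plus those marked as chosen later. Some genes and sequences that these rules name are not reported here. The regions, lists and motifs were chosen with earlier results of these data known.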

Additional observations from a re-analysis of the deposited data

How the results depend on the processing

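The number of constant PPARα-alone regions ran from 3566 to 4198 over 7 alternative distances, overlap rules, promoter windows and sets of chromosomes or transcripts. The comparisons with floxed-liver BCL6 kept their direction and call under all 10 alternatives, with odds ratios of 0.127 to 0.165, 2.06 to 2.46 and 3.86 to 4.46.

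Against the fasted-only regions, several values depended on the promoter window, given here for 1000 bp to either side and for 5000 bp upstream to 1000 bp downstream. The CpG-rich odds ratio became 0.832 and 0.839, that of exons 0.880 and 0.882, and that of intergenic positions 1.05 and 1.04, none past the threshold. Intergenic positions also lost their call with centres within 400 bp and without BCL6 within 1000 bp (both 1.09), and against fed-only regions with the first window (0.897). The values close to 1 changed side: introns became 0.974 and 0.982, and a TSS within 5 kb 1.15 and 1.17, with adjusted p-values of 0.0156 and 0.0377, and 1.0 with centres within 400 bp and without BCL6 within 1000 bp. The repeat comparison with the class with BCL6 lost its call with 1 region per run (0.911) and without BCL6 within 1000 bp (0.892).

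Counts of motifs past the threshold fell with shorter windows. In the central 50 bp, 2 were more and 5 less frequent than in the class with BCL6, 0 less frequent than in fed-only regions, and 2 more and 2 less frequent than in fasted-only regions. The last count was also 2 in the central 100 bp and with the wider promoter window. At 45 to 50% GC, counts of more and less frequent motifs were 1 and 1, 0 and 0, and 1 and 0, where fewer regions were tested. This restriction and the removal of promoters of predicted transcripts were added after the data were seen. At 45 to 50% GC the HNF6 odds ratio against fed-only regions turned to 1.25 and that of the D-box against the class with BCL6 to 1.02. The cause of the other changes was not tested.

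No paired analysis was possible because the lists pool the livers. For the same reason leaving out a replicate was not run, nor a stricter peak threshold, since no scores are given. With positions only, neither peak height nor depth can be weighed.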
